A study of Xenopus tropicalis with 2 samples.

Results

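The genes described here are the cell cycle and replication genes of Xenopus tropicalis, chosen by symbol alone. A gene was a member where its name began as that of an A, B, D or E cyclin (ccna, ccnb, ccnd, ccne), a numbered cyclin-dependent kinase (cdk) or cdc gene, an E2F factor (e2f), a minichromosome maintenance (mcm) or origin recognition complex (orc) subunit, aurk, bub1, or a centromere protein (cenpa to cenpu). Of 21821 genes in the count matrix, 111 were members, and each of the 111 matched a single RefSeq symbol in assembly UCB_Xtro_10.0. Of these, 101 had at least 50 transcripts in nuclei and were compared, among 11721 genes of the matrix that did.

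RNA was counted in single nuclei isolated from whole wild-type X. tropicalis embryos at stage 10.5, the early gastrula, which came from in vitro fertilized eggs. No treated, mutant or later group was analysed here. The isolated nuclei were fixed, barcoded by the Parse split-pool method and read as sublibraries 1 and 2, which are technical divisions of 1 pool, so the n of 2 measures how well the barcoding and sequencing repeat and not how embryos differ. No test between conditions is possible in this design and no p-value is given.

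Dividing cells copy their DNA once and then separate the copies. Cyclins switch on cyclin-dependent kinases, E2F factors and their pocket-protein partners control transcription of S-phase genes, the ORC and MCM complexes license and open replication origins, and centromere, Aurora and Bub proteins attach and check the chromosomes before the anaphase-promoting complex ends mitosis. In Xenopus embryos early cleavage runs on maternal cyclins with hardly any gap phases, and the cycle lengthens around the mid-blastula transition, before gastrulation. Counts of RNA in nuclei do not give protein level, kinase activity or the share of nuclei that were dividing.

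The 2 sublibraries held 44341256 and 44026454 transcripts, counted as unique molecular identifiers (UMIs). Barcodes with at least 1500 detected genes were taken as nuclei, 4245 and 4229 of them, with medians of 4658 and 4661 UMIs. Of 8268 distinct barcode combinations among these 8474 nuclei, 206 were a nucleus in both sublibraries. Members together contributed 769834 UMIs, or 1.49% of those in nuclei. Levels are summed UMIs of a class of nuclei per 1000000 UMIs of that class (CPM). CPM was not scaled to gene length, so it compares classes for 1 gene and not genes with each other. A difference is the log2 ratio of CPM + 1, and a gene was counted as higher or lower past 2-fold, a log2 ratio of 1 in size. Intervals are exact 95% Poisson intervals, which cover counting error only. Where sublibrary values are said not to overlap between classes, the share of all genes that do so was not counted. Such a gap describes how counting of 1 pool repeats and marks nothing particular to a gene.

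The symbol rule did not gather cell cycle genes alone. By known role, 19 members act in DNA replication, 7 are E2F factors, 12 are cell cycle kinases and phosphatases, 16 are centromere or centriole proteins, 9 act in the spindle checkpoint or protein degradation, and 10 are cyclins, which makes 73 with a cell cycle role. The other 38 were placed in a group of other roles, which does not exclude a part in the cell cycle. They include the small GTPase cdc42 and its effectors, kinases of transcription and splicing such as cdk9, cdk12, cdk13 and cdk11b, the neuronal kinase cdk5 and its partners, cdc5l and cdc40 of the spliceosome, and the Hsp90 co-chaperone cdc37.

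The 10 members under 50 UMIs in nuclei were cdc20b (49 UMIs), cdk5r2 (38), cdk19 (34), cdk10 (33), cdc26 (28), cdc42se2 (10), cdc42se1 (8), cdc42ep3 (3), ccnb1ip1 (1) and cdc42ep1 (0). The count of 0 for cdc42ep1, among 51545496 UMIs, allows a level of up to 0.0582 CPM (3 UMIs). The nearest member above the limit was cdk18, with 56 UMIs. Of 48 core regulators listed, 46 were among the members, while ccnd3 and e2f2 were not found under those names. The matrix holds ccnb1 and ccnb1.2, and mcm6 and mcm6.2, as separate genes. The sources used here do not say how reads shared by such related copies were divided, so the split within each pair is uncertain.

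Nuclei with at least 10 UMIs of dscaml1 were compared with all other nuclei. The gene dscaml1 encodes a cell adhesion molecule of the immunoglobulin family, and nuclei rich in dscaml1 and tp73, a transcription factor gene, form clusters to which the study gives no germ layer. There were 718 such nuclei, 363 and 355 in the 2 sublibraries, and 7756 others. Just inside and outside the limit, 16 nuclei had 10 dscaml1 UMIs and 16 had 9, whereas 597 nuclei had 20 or more and 6439 had 0. Most of these 718 nuclei, 470 of them, lay in the 2 clusters at least 4-fold richer in both dscaml1 and tp73 than the rest.

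Most of the cell cycle machinery stood at nearly the same level in dscaml1 nuclei as in the other nuclei. Among the 101 members, 2 were higher past 2-fold (1.98%) and 0 were lower, against 4.73% of all genes tested that were higher and 0.145% that were lower. The members' median log2 ratio was −0.11, against −0.08 over all genes, and 91 of 101 members (90.1%) lay within 0.5 of no difference, as did 84.1% of all genes. Both members past 2-fold were kinases on chromosome 6, cdk14 and cdk6.

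**Figure D1:**
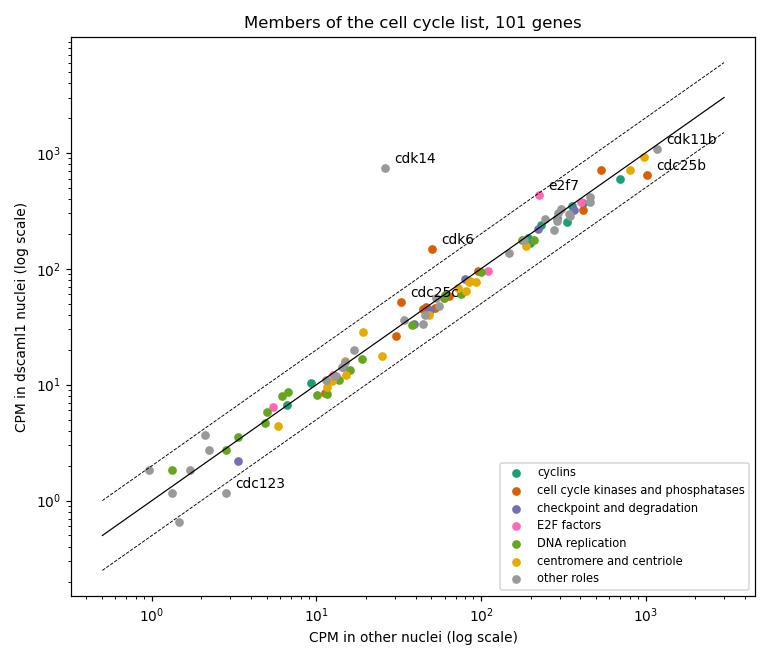
Level of each of the 101 members in dscaml1 nuclei (y axis, CPM, log scale) against the other nuclei (x axis, CPM, log scale), coloured by role. The solid line marks equal levels and the dashed lines mark 2-fold. Most points follow the line, and cdk14 and cdk6 lie above the upper dashed line.

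cdk14 encodes a kinase of the PFTAIRE group that pairs with cyclin Y at the membrane and phosphorylates the Wnt co-receptor LRP6. The gene spans 279683 bp on chromosome 6 (30903898 to 31183580). cdk14 was at 752 and 736 CPM in dscaml1 nuclei of sublibraries 1 and 2, against 28.1 and 24.0 CPM in other nuclei. Its level in dscaml1 nuclei was far above that in other nuclei in both sublibraries, with no overlap. Over both sublibraries cdk14 was at 744 CPM (interval 725 to 764) in dscaml1 nuclei and at 26.0 CPM (24.5 to 27.6) in other nuclei, a 28.6-fold difference and a log2 ratio of 4.79 ± 0.13 (SD of 2 sublibraries).

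cdk6 encodes a partner of D cyclins that phosphorylates the retinoblastoma protein, and lies on the same chromosome (31887813 to 31987875). cdk6 was at 165 and 130 CPM in dscaml1 nuclei, against 48.4 and 52.9 CPM in other nuclei. Both values in dscaml1 nuclei were above both values in other nuclei, although the sublibraries differed more than for cdk14. Over both sublibraries cdk6 was 2.92-fold higher, a log2 ratio of 1.53 ± 0.33.

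cdk4, the other partner of D cyclins, was not higher. It was at 335 and 308 CPM in dscaml1 nuclei and at 422 and 417 CPM in other nuclei, a log2 ratio of −0.38. The D cyclins themselves were also below their level elsewhere, with ccnd2 at 260 and 250 CPM against 329 and 340 CPM (−0.39) and ccnd1 at 596 and 597 CPM against 706 and 699 CPM (−0.24). None of these 3 values overlapped between the classes, and none was past 2-fold.

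The atypical E2F factors e2f7 and e2f8 repress E2F targets without a DP partner. e2f7 (chromosome 3, 61559081 to 61572919) was at 415 and 458 CPM in dscaml1 nuclei, against 227 and 224 CPM in other nuclei. Its log2 ratio of 0.95 ± 0.11 was just under 2-fold over both sublibraries, past it in sublibrary 2 alone (1.03), and past it in 6 of 14 alternative settings, which gave 0.85 to 1.42. Its close relative e2f8 differed little, at 362 and 387 CPM against 405 and 403 CPM (−0.11). The activator e2f1 was at 6.96 and 5.75 CPM in dscaml1 nuclei and at 5.98 and 4.97 CPM in other nuclei, and e2f3 was at 95.2 and 97.7 CPM against 110 and 111 CPM (−0.19). The median of the 7 E2F factors was −0.09.

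The 3 CDC25 phosphatases, which remove inhibitory phosphates from cyclin-dependent kinases, did not move together. cdc25b (chromosome 1, 15562170 to 15577489) was at 643 and 654 CPM in dscaml1 nuclei, against 1024 and 1015 CPM in other nuclei, a log2 ratio of −0.65. cdc25c was at 49.5 and 53.9 CPM against 32.2 and 33.1 CPM (0.64), and cdc25a was at 42.0 and 47.6 CPM against 45.1 and 43.3 CPM (0.02). cdc25b was thus lower and cdc25c higher in both sublibraries without overlap, while cdc25a overlapped.

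Mitotic members were within 2-fold, and several were at near-equal levels. ccna2, the A cyclin of S phase and mitotic entry, was at 234 and 243 CPM in dscaml1 nuclei and at 235 and 230 CPM in other nuclei. ccnb2, a B cyclin that drives mitosis, was at 193 and 177 CPM against 194 and 193 CPM, and its partner kinase cdk1 was at 48.5 and 42.2 CPM against 53.3 and 51.7 CPM. The chromosomal passenger kinase aurkb was at 95.9 and 95.3 CPM against 95.1 and 95.6 CPM, a log2 ratio of 0.00. The checkpoint kinase bub1 was at 215 and 222 CPM against 219 and 224 CPM, and the kinetochore protein cenpf was at 953 and 904 CPM against 980 and 976 CPM. cdc20, which activates the anaphase-promoting complex, was at 327 and 315 CPM against 367 and 370 CPM (−0.20) without overlap, and the checkpoint kinase gene bub1b was at 34.8 and 32.0 CPM against 39.2 and 38.6 CPM (−0.21). The inner kinetochore gene cenpk went the other way, at 29.8 and 27.4 CPM against 18.6 and 19.6 CPM (0.56). Kinetochore and centriole genes as a group leaned lower, with 2 of 16 above 0, a median of −0.21, and cenpe at 706 and 704 CPM in dscaml1 nuclei against 792 and 811 CPM in other nuclei. The median over all genes was itself below 0, at −0.08, with quartiles of −0.24 and 0.13. The share of all genes above 0 was not counted, and 31 of all 101 members were above 0.

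Replication genes likewise lay close to their level in other nuclei in this comparison, and values under other choices of nuclei are given below. The 19 members had a median log2 ratio of −0.07, the lowest being the helicase subunit mcm2 (−0.44) and the highest mcm3 (0.32), both at 12.0 CPM or less in every class and sublibrary. mcm7, the MCM subunit with most UMIs, was at 166 and 190 CPM in dscaml1 nuclei and at 207 and 215 CPM in other nuclei (−0.25). orc1, an ORC subunit that binds ATP, was at 93.0 and 94.7 CPM against 104 and 96.6 CPM (−0.09), and cdc6, which loads the MCM ring, was at 54.7 and 58.3 CPM against 60.3 and 58.6 CPM (−0.07). The S-phase cyclins ccne1 and ccne2 had log2 ratios of −0.24 and −0.17. Summed over the 73 members with a cell cycle role, the level was 9392 and 9442 CPM in dscaml1 nuclei, against 10102 and 10129 CPM in other nuclei, a log2 ratio of −0.10.

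**Figure D2:**
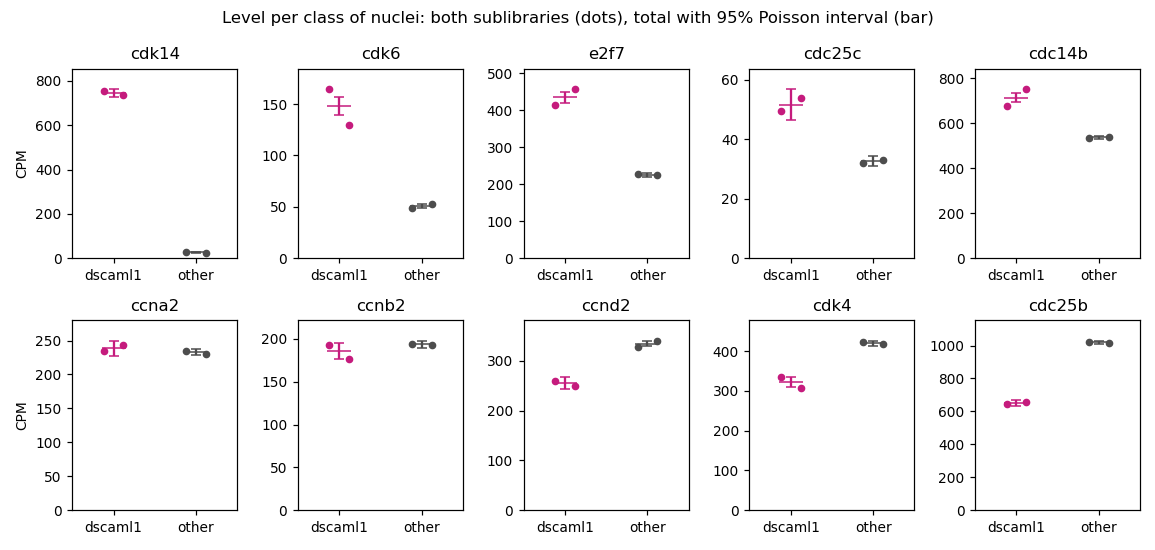
Level (CPM, linear axes from 0) of 10 members in dscaml1 nuclei (left in each panel) and other nuclei (right). Dots are the 2 sublibraries, and the bar with whiskers is the level over both with its exact 95% Poisson interval. cdk14 and cdk6 are higher in dscaml1 nuclei, cdc25b is lower, and ccna2 and ccnb2 are nearly level.

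Genes of the same pathways that are not members were read from a separate list of 69 cell cycle genes, of which 67 were in the matrix and 64 had at least 50 UMIs. In dscaml1 nuclei 1 of the 64 was higher past 2-fold, where 4.73% of all genes were, and 0 were lower, where 0.145% were. The 1 was rbl2, a pocket protein that holds E2F factors in a repressive complex, at 207 and 226 CPM in dscaml1 nuclei against 7.46 and 6.46 CPM in other nuclei (log2 ratio 4.77). The replication clamp pcna was close to 2-fold, at 25.9 and 29.0 CPM against 13.5 and 13.6 CPM (0.96). The centrosomal kinase gene nek2 was at 60.2 and 70.1 CPM against 101 CPM in each sublibrary of other nuclei (−0.63). The proliferation marker mki67 was at 2449.9 CPM over both sublibraries in dscaml1 nuclei, against 2407 CPM in other nuclei.

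Another list held genes linked to cell cycle arrest, 5 of which were counted, and 3 of the 5 were higher past 2-fold, where 4.73% of all genes were. This list was chosen with earlier results of these data known, so its count is a description. ccng1, which encodes cyclin G1 and is outside the symbol rule, was at 159 and 172 CPM in dscaml1 nuclei and at 3.77 and 4.16 CPM in other nuclei (5.07). The kinase inhibitor gene cdkn1a was at 69.9 and 72.3 CPM against 1.33 and 1.58 CPM (4.87). The ubiquitin ligase gene mdm2 was at 1197 and 1279 CPM against 131 and 133 CPM (3.22). gadd45a (0.16) and cdkn1b (−0.41), which encode a DNA damage response protein and another kinase inhibitor, were within 2-fold. Thus the classes separated widely for these 3 genes in both sublibraries.

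The dscaml1 nuclei were also deeper and held more predicted doublets. Their class was set by an absolute minimum of 10 dscaml1 UMIs, which deep barcodes reach more easily. The differences in depth and doublets are therefore not read as traits of the nuclei, and their cause was not tested. Their median was 5789.5 UMIs, against 4580.0 in other nuclei, and 18.1% of them scored as doublets, against 8.43% of other nuclei. Of their 718, 130 were predicted doublets and 79 lay in 1 cluster with a median of 13882.5 UMIs, which was left unnamed. Mesoderm and endoderm markers stood mostly above their level in other nuclei. The median log2 ratio over all genes was −0.08, and the share of all genes above 0 was not counted. Of the listed markers with at least 50 UMIs, 0 of 8 outer and 0 of 5 inner ectoderm markers were past 2-fold. The inner list summed to 4791 and 4534 CPM in dscaml1 nuclei against 5298 and 5226 CPM in other nuclei. The outer list summed to 5195 and 5918 CPM against 6560 and 6529 CPM. Dorsal endoderm markers, led by frzb at 405 CPM against 228 CPM, were above 0 in 6 of 6 counted, dorsal mesoderm markers in 7 of 7, and ventral and lateral mesoderm markers in 8 of 10. The dorsal endoderm list summed to 982 and 1043 CPM against 724 and 710 CPM. Ventral and lateral mesoderm markers summed to 1508 and 1441 CPM against 1325 and 1277 CPM. For dorsal mesoderm the sum was 1681 and 1368 CPM against 1428 and 1454 CPM, higher in sublibrary 1 and lower in sublibrary 2. Ventral endoderm markers were above 0 in 8 of 8, and 2 of the 8, mixer at 28.0 CPM against 10.8 CPM and sox17b.1 at 5.73 CPM against 2.23 CPM, were past 2-fold, with the list at 637 and 681 CPM against 547 and 567 CPM. Of the defining markers foxa2 was at 0 UMIs in both classes, and the germ line marker nanos1 was at 0 UMIs in dscaml1 nuclei and 2 UMIs in other nuclei. The comparison was repeated with depth, doublets and clusters held apart, and the part of mesoderm and endoderm RNA was not tested.

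Without predicted doublets, 3 of 100 members were higher (background 5.7%), namely cdk14 (5.13), cdk6 (1.69) and e2f7 (1.09), and 0 were lower (background 0.949%). Within the middle range of UMIs of dscaml1 nuclei, 4448.25 to 8880 UMIs, 358 dscaml1 nuclei with a median of 5789.5 UMIs were set against 3526 others with a median of 5554.5. There, the same 3 members were higher (background 7.14%), with cdk14 at 5.53, cdk6 at 2.07 and e2f7 at 1.42. 4 were lower (background 6.59%), namely cdc123 (−1.38), which acts in assembly of a translation factor, mcm6.2 (−1.18), mcm5 (−1.15) and cdc25b (−1.02). Even the full dscaml1 class held only 9 UMIs of cdc123, 85 of mcm5 and 103 of mcm6.2, against 4975 of cdc25b. The values of cdc123, mcm5 and mcm6.2 thus rest on few UMIs. Within the middle UMI range the median over all genes was −0.21 and that of the members −0.32, and the lower values are read against that shift.

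With the 503 nuclei of the 2 dscaml1 and tp73 clusters against the 7187 nuclei of all other clusters, 4 members were higher (background 7.47%), namely cdk14 (4.91), cdk6 (2.21), e2f7 (1.42) and cdc25c. 5 were lower (background 7.13%), namely mcm5 (−1.17), orc3 (−1.11), cdc25b (−1.05), mcm6.2 (−1.01) and orc6, which was at the limit. All genes had a median of −0.22 and the members of −0.25. Few UMIs were counted for orc3 and orc6, with 36 and 63 in the full dscaml1 class, where orc3 was at −0.05. Between these clusters mcm7 was at −0.66 and cdk4 at −0.79, and in the middle UMI range they were at −0.61 and −0.81. The mitotic members ccnb2 (−0.23 and −0.30) and cdk1 (−0.32 and −0.17) lay nearer to no difference in both. Medians of UMIs per nucleus were 4827 in the dscaml1 and tp73 clusters and 4489 in the others. In every one of 14 alternative settings cdk14 and cdk6 were higher past 2-fold, at 4.51 to 5.53 and 1.24 to 2.21. cdc25b was lower in every one of them, at −1.05 to −0.50, and past 2-fold in 2.

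By cluster, the 2 dscaml1 and tp73 clusters were not alike for every member. The cluster of 366 nuclei led by hepacam, in which 6 of 6 dorsal endoderm and 3 of 5 inner ectoderm markers were raised, had cdk14 at 1567 CPM and cdk6 at 271 CPM, and the cluster of 137 nuclei led by sphk1, in which 8 of 8 outer ectoderm markers were raised, had cdk14 at 1071 CPM and cdk6 at 181 CPM. cdc14b, a phosphatase whose budding yeast relative reverses CDK phosphorylation at mitotic exit, was at 630 CPM in the hepacam cluster (610 and 651 by sublibrary), against 1827 CPM in the sphk1 cluster (1790.2 and 1858). cdc25c was at 63.3 CPM in the hepacam cluster and at 99.7 CPM in the sphk1 cluster, and the 10 clusters named for a germ layer held 24.3 to 41.9 CPM. e2f7 was at 600 CPM in the hepacam cluster and 680 CPM in the sphk1 cluster, with intervals of 566 to 634 and 622 to 742 that overlapped, and the next cluster was outer non-neural ectoderm-like at 361 CPM. cdc25b was at 476 and 499 CPM in the 2 clusters, with overlapping intervals. Summed over the replication members, the hepacam cluster was at 666 CPM and the sphk1 cluster at 617 CPM. The ventral endoderm-like cluster was close to the hepacam cluster, at 671 CPM. Their sublibraries overlapped, at 668 and 673 CPM against 662 and 670 CPM in the hepacam cluster. The other clusters named for a germ layer were at 741 to 1004 CPM.

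For the germ layers, nuclei were clustered without the members and the pathway genes, and clusters were named as germ layer-like from marker genes. All genes tested include those that built and named the clusters. Shares of members and of all genes are therefore not on equal terms here or in the layer comparison below. Ectoderm-like nuclei, 3576 of them with a median of 4340.5 UMIs, were compared with 2795 mesoderm- or endoderm-like nuclei with a median of 4600.0. In this comparison 98 members had at least 50 UMIs. 0 of them were higher past 2-fold in ectoderm-like nuclei, where 6.33% of all genes were, and 4 were lower (4.08%), where 8.88% of all genes were. The members' median log2 ratio was 0.14 and that of all genes 0.07.

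Of the 4 lower members, cdc14a alone is in the cell cycle groups, and the other 3 carry a cdk or cdc name but were placed in the group of other roles. cdc42ep2 (chromosome 4, 31693404 to 31707052), an effector of Cdc42 in actin organization, was at 3.47 and 3.42 CPM in ectoderm-like nuclei, against 37.4 and 35.5 CPM in mesoderm- or endoderm-like nuclei (log2 ratio −3.07). cdk14 was at 8.79 and 6.84 CPM against 52.8 and 47.6 CPM (−2.54). cdc14a (chromosome 4, 108827701 to 108865060), a phosphatase of the CDC14 family, was at 11.2 and 13.1 CPM against 53.7 and 50.5 CPM (−2.01). cdk15 (chromosome 9, 52013493 to 52115672), the PFTAIRE kinase related to cdk14, was at 4.86 and 4.33 CPM against 20.2 and 17.3 CPM (−1.82). Each was lower in ectoderm-like nuclei in both sublibraries without overlap. Within the pooled class levels were uneven. cdk15 was at 9.97, 1.94 and 1.21 CPM in the mesoderm-like clusters, and at 10.6 CPM in the outer ectoderm-like one. In the same mesoderm-like clusters cdk14 was at 18.8, 7.12 and 11.3 CPM, against 4.24 to 10.2 CPM in ectoderm-like ones. cdc14a was at 49.8, 12.9 and 32.2 CPM there, against 4.90 to 17.7 CPM. The endoderm-like levels are given below.

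cdc42ep2, cdk14 and cdc14a were lower past 2-fold in each of 16 alternative settings and cdk15 in 15 of 16. With a minimum of 2000 genes per nucleus cdk15 had a log2 ratio of −0.71.

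Of the 98 members 68 were above 0 and 30 below, a split not counted over all genes. The lowest of the core regulators were e2f1 (log2 ratio −0.56), mcm3 (−0.48) and orc4 (−0.34). These ratios were below 0 in every alternative that counted the gene. Members higher in ectoderm-like nuclei stayed under 2-fold. cdc14b (chromosome 1, 136251592 to 136276278) was at 622 and 638 CPM in ectoderm-like nuclei, against 332 and 323 CPM in mesoderm- or endoderm-like nuclei (0.94). Its level was uneven within ectoderm, at 1233 CPM in the outer cluster and 469 CPM in the next highest named cluster, an inner one. The centromeric histone gene cenpa was at 15.2 and 14.6 CPM against 6.95 and 7.71 CPM (0.93), and ccnd2 (chromosome 3, 11310563 to 11359045), a D cyclin, was at 421 and 429 CPM against 224 and 238 CPM (0.88). For these 3 the sublibraries did not overlap between the classes. ccnd2 was also uneven within ectoderm. Its level in outer ectoderm-like nuclei was near that of mesoderm- or endoderm-like nuclei and the inner level was higher, as given below for the layers. cdk1 was at 59.8 and 62.7 CPM against 44.0 and 39.0 CPM, and mcm4 at 47.1 and 44.2 CPM against 29.9 and 31.7 CPM, both with a log2 ratio of 0.55. mcm10, a replication initiation factor, was at 88.0 and 91.9 CPM against 61.8 and 60.2 CPM, also 0.55.

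Cell cycle groups leaned the same way, to different extents. All 16 centromere and centriole members were above 0, at 0.08 to 0.93, the most one-sided group. So were 10 of 12 kinases and phosphatases, 5 of 7 checkpoint and degradation members and 11 of 18 replication members. Among cyclins 6 of 10 were above 0, and among E2F factors 4 of 7. The summed level of the 73 cell cycle members was 10938 and 10975 CPM in ectoderm-like nuclei, against 9139 and 9058 CPM in mesoderm- or endoderm-like nuclei (log2 ratio 0.27). By cluster, ectoderm-like and mesoderm-like sums overlapped. The sum was 10772.5, 10498 and 8947 CPM in the mesoderm-like clusters, against 10043 to 12558 CPM in ectoderm-like ones. It was lowest in the endoderm-like clusters, at 7249 and 7665 CPM. The median of the centromere and centriole members was 0.21, against 0.07 over all genes, which was itself above 0. All genes had quartiles of −0.22 and 0.32, and their share above 0 was not counted. The other-role members had a median of 0.05. In the pathway list 2 of 62 genes were higher past 2-fold, where 6.33% of all genes were, and 0 were lower, where 8.88% were. The 2 higher genes were nek2, at 121 and 133 CPM against 19.4 and 20.4 CPM (2.62), and the midzone microtubule bundler prc1, at 319 and 318 CPM against 154 and 157 CPM (1.03). For both genes the outer ectoderm-like nuclei were far above the inner ones, as given below for the layers. The inner level of prc1 was near that of mesoderm- or endoderm-like nuclei. Of the arrest list, 4 genes were counted and 0 passed 2-fold in either direction.

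**Figure D3:**
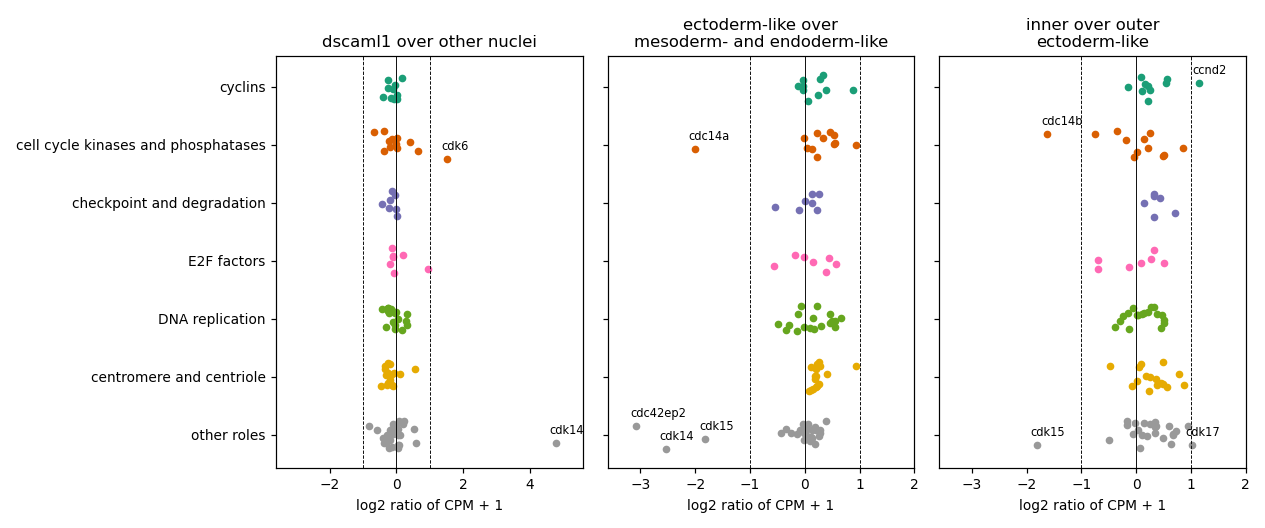
Log2 ratio of CPM + 1 (x axis) of each counted member by role (y axis) in the 3 comparisons. Each dot is 1 gene, the solid line marks 0, the dashed lines mark 2-fold, and genes past 2-fold are named. Most dots lie between the dashed lines, and 2 genes are named in the dscaml1 panel, 4 in the germ layer panel and 4 in the layer panel.

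Xenopus ectoderm has a superficial outer and a deep inner layer. Inner ectoderm-like nuclei (2616, median 4294.5 UMIs) were compared with 960 outer ectoderm-like nuclei (median 4449.0 UMIs). The outer class was 1 non-neural cluster, since another cluster of 620 nuclei led by tspan1, with 8 of 8 outer markers raised, had too few region markers to be named and was left out. Of 93 members counted, 2 were higher in inner nuclei (2.15%), where 9.0% of all genes were, and 2 were lower (2.15%), where 8.91% were. The median was 0.22 for members and 0.17 for all genes, and small positive ratios are read against that shift.

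ccnd2 was at 489 and 513 CPM in inner nuclei, against 236 and 217 CPM in outer nuclei (log2 ratio 1.14). cdk17 (chromosome 3, 50492592 to 50591255), a PCTAIRE kinase found in postmitotic neurons in mammals, was at 60.3 and 61.5 CPM against 31.4 and 28.2 CPM (1.01). In both genes the sublibraries of the 2 pooled layers did not overlap. By cluster cdk17 did not follow the layers. It was at 101 CPM in the inner neural cluster led by pde7b. In the inner neural cluster led by slc25a24 it was at 17.1 CPM (interval 12.2 to 23.4), below the outer nuclei. Relative to the median of all genes the ratios were 0.98 for ccnd2 and 0.84 for cdk17, under 2-fold. ccnd2 was past 2-fold in 10 of 16 alternative settings, which gave 0.51 to 1.24, and cdk17 in 9 of 16, the lowest being 0.73. In sublibrary 1 alone cdk17 was at 0.92, under 2-fold.

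Of the 2 lower members, cdc14b rested on many UMIs and cdk15 on few. cdc14b was at 406 and 394 CPM in inner nuclei, against 1207 and 1257 CPM in outer nuclei (log2 ratio −1.62), and was lower past 2-fold in 16 of 16 alternatives. cdk15 was at 2.53 and 2.07 CPM against 11.2 and 10.1 CPM (−1.81), from 29 UMIs in inner and 51 in outer nuclei, so it met the minimum of 50 UMIs mainly through the outer nuclei. It was past 2-fold in the 13 alternatives that counted it and fell under the minimum in each single sublibrary. Among the 10 clusters named for a germ layer, cdc14b was highest in the outer one, at 1233 CPM.

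Several regulators differed less than 2-fold between the layers without overlap of the sublibraries, which was not counted over all genes. Both atypical E2F factors were lower in inner nuclei, e2f7 at 242 and 205 CPM against 349 and 372 CPM and e2f8 at 321 and 319 CPM against 500 and 534 CPM, each with a log2 ratio of −0.69. By cluster e2f7 was uneven among inner nuclei. It was at 128 CPM in the inner cluster led by pde7b and at 328 CPM (interval 309 to 347) in the one led by insm1 and pax3. The latter interval overlapped that of the outer cluster, at 361 CPM (344 to 378). bub1 was higher, at 259 and 272 CPM in inner nuclei against 164 and 161 CPM in outer nuclei (0.71). ccnd1 was at 767 and 754 CPM against 523 and 522 CPM (0.54), and ccna2 at 276 and 285 CPM against 185 and 195 CPM (0.56). cdk6 was at 68.1 and 72.0 CPM against 42.1 and 35.0 CPM (0.85), while cdk4 was level, at 491 and 466 CPM against 479 and 463 CPM (0.02). aurkb (−0.05), orc1 (0.01), cdc6 (0.04) and cenpf (0.08) were also within 0.1 of no difference. These ratios are not centred, and all of them and that of cdk4 lay below the all-gene median of 0.17. Relative to that median aurkb was at −0.21.

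In the pathway list 0 of 59 genes were higher past 2-fold in inner nuclei, where 9.0% of all genes were, and 2 were lower, where 8.91% were. nek2 was at 35.3 and 37.5 CPM in inner nuclei, against 355 and 377 CPM in outer nuclei (−3.30), and prc1 at 154 and 147 CPM against 768 and 751 CPM (−2.33). Of the 3 arrest genes counted, gadd45a was at 42.4 and 36.9 CPM against 691 and 697 CPM (−4.10) and mdm2 at 98.3 and 83.2 CPM against 216 and 260 CPM (−1.39), and cdkn1b (0.77) was within 2-fold. The members of the same processes, such as aurkb and cenpe, did not show a difference of that size.

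Across the 10 named clusters outside the dscaml1 and tp73 class, the members with at least 200 UMIs varied less than genes in general. The ratio of highest to lowest cluster was past 4-fold for 9 of 84 members (10.7%), against 2122 of 7258 genes (29.2%), and past 2-fold for 43 members (51.2%), against 63.2% of genes. The median log2 range was 1.01 for members and 1.25 for all genes. Genes with more UMIs have less counting noise in such a range, and the 2 sets were not matched on level. Members were also left out of the genes that built the clusters, whereas the 7258 genes include genes that built and named them. The 2 sets are therefore not on equal terms here or in the shares by highest and lowest cluster. The narrowest ranges were those of cdk11b (0.34), ccnb2 (0.36) and aurkb (0.41). The 9 past 4-fold were cdc14a, cdk14, cdk15, cdc42ep2, ccnd2, cdc14b, cdk17, cdk6 and cdc25b.

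The highest cluster of cdc14a was the ventral endoderm-like one, at 192 CPM (204 and 180 by sublibrary), followed by a ventral and lateral mesoderm-like cluster at 49.8 CPM, and its lowest was the inner non-neural ectoderm-like cluster led by mettl24 at 4.90 CPM. cdk14 and cdk15 both peaked in the dorsal endoderm-like cluster, cdk14 at 168 CPM (168 and 169) and cdk15 at 61.7 CPM (60.8 and 62.6), and both were next highest in the ventral endoderm-like cluster, at 69.0 and 26.0 CPM. Of the 316 nuclei of the ventral endoderm-like cluster 14 had at least 10 dscaml1 UMIs, and without them cdk14 was at 59.0 CPM and cdk15 at 27.4 CPM there. Without 7 such nuclei the dorsal endoderm-like cluster had cdk14 at 165 CPM and cdk15 at 61.2 CPM. Leaving such nuclei out, an alternative chosen after seeing the data, gave log2 ratios between ectoderm-like and mesoderm- or endoderm-like nuclei of −2.50 for cdk14 and −1.81 for cdk15. The remaining 8 named clusters had cdk14 at 4.24 to 18.8 CPM. All 10 thus stayed under the 1567 and 1071 CPM of the dscaml1 and tp73 clusters. cdc42ep2 was at 50.7 CPM in a ventral and lateral mesoderm-like cluster and at 46.2 CPM in the dorsal endoderm-like one, with overlapping intervals, and at 2.70 CPM in the outer ectoderm-like cluster.

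ccnd2 was highest in the 2 inner neural ectoderm-like clusters, at 642 CPM (629 and 654) in the one led by slc25a24 and 576 CPM in the one led by pde7b, and lowest in the dorsal endoderm-like cluster at 59.2 CPM. ccnd1 was also highest in the slc25a24 cluster, at 1007 CPM, and lowest in dorsal endoderm-like nuclei, at 431 CPM, a smaller range. cdc25b was likewise highest in the slc25a24 cluster, at 1692 CPM, and had its lowest level in ventral endoderm-like nuclei, at 393 CPM. The 2 inner neural clusters parted for cdk17, which was at 101 CPM in the pde7b cluster and at 17.1 CPM in the slc25a24 cluster. cdk6 was at 108 CPM in the mettl24 non-neural cluster and at 21.5 CPM in ventral endoderm-like nuclei. cdc14b was at 1233 CPM in the outer cluster, 942 CPM in the unnamed tspan1 cluster and 205 CPM in dorsal endoderm-like nuclei.

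**Figure D4:**
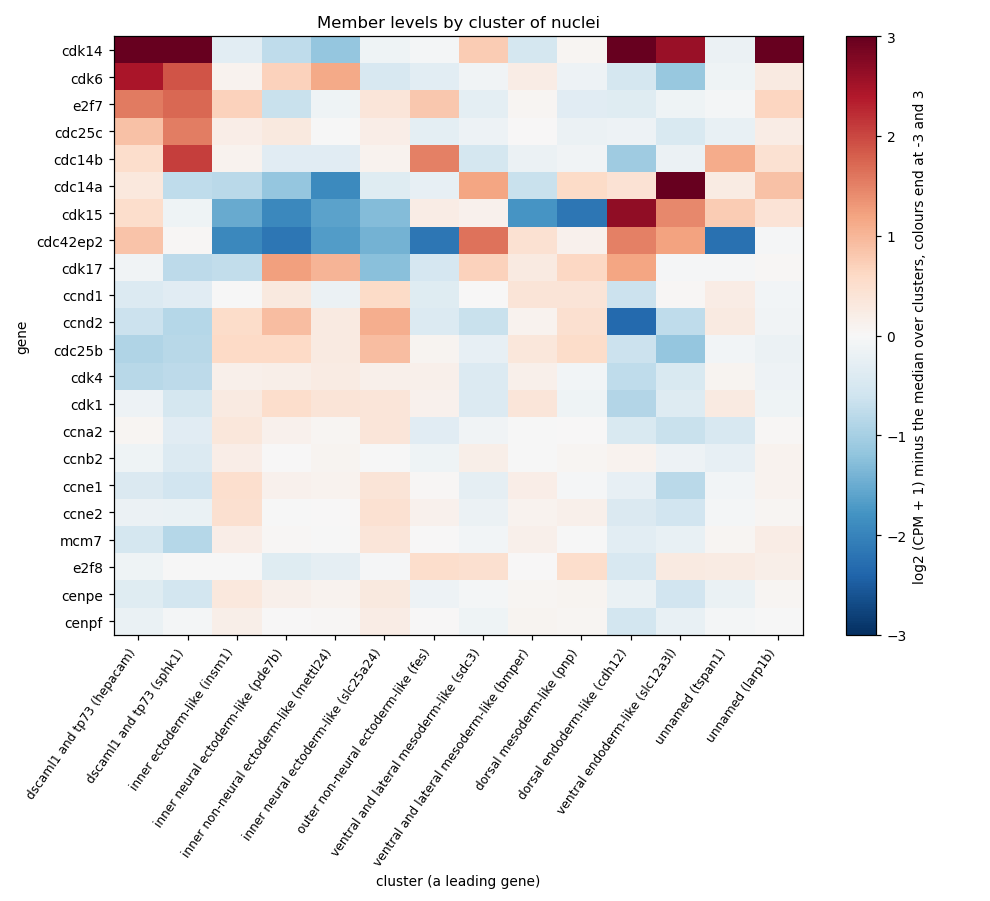
Level of 22 members (rows) in 14 clusters of nuclei (columns, with a leading gene in brackets), as log2(CPM + 1) minus the gene's median over clusters, with colours ending at −3 and 3. cdk6, e2f7 and cdc25c are darkest red in the 2 dscaml1 and tp73 clusters at the left, where cdk14 reaches the end of the scale as it does in the dorsal endoderm-like and larp1b clusters, and ccnb2 is pale throughout.

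The highest cluster was an inner ectoderm-like one for 65 of the 84 members (77.4%) and for 50.1% of the 7258 genes, and an endoderm-like one for 8 members (9.52%) and 21.9% of genes. The lowest cluster was an endoderm-like one for 64 members (76.2%) and 51.4% of genes. The slc25a24 inner neural cluster was highest for 27 members (32.1%) and 19.7% of genes, and the ventral endoderm-like cluster was lowest for 43 members (51.2%) and 27.8% of genes. The summed CPM of the 73 cell cycle members was 12558 CPM in the slc25a24 cluster (12424 and 12679 by sublibrary), 11604 CPM in the inner ectoderm-like cluster led by insm1 and pax3, 7665 CPM in ventral endoderm-like and 7249 CPM in dorsal endoderm-like nuclei (7298 and 7197). The 2 dscaml1 and tp73 clusters were at 8761 and 9587 CPM. Median UMIs per nucleus ran the other way at these ends, with 3913 in the slc25a24 cluster, 4999 in ventral endoderm-like and 4636.5 in dorsal endoderm-like nuclei, and the part of depth was not tested.

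**Figure D5:**
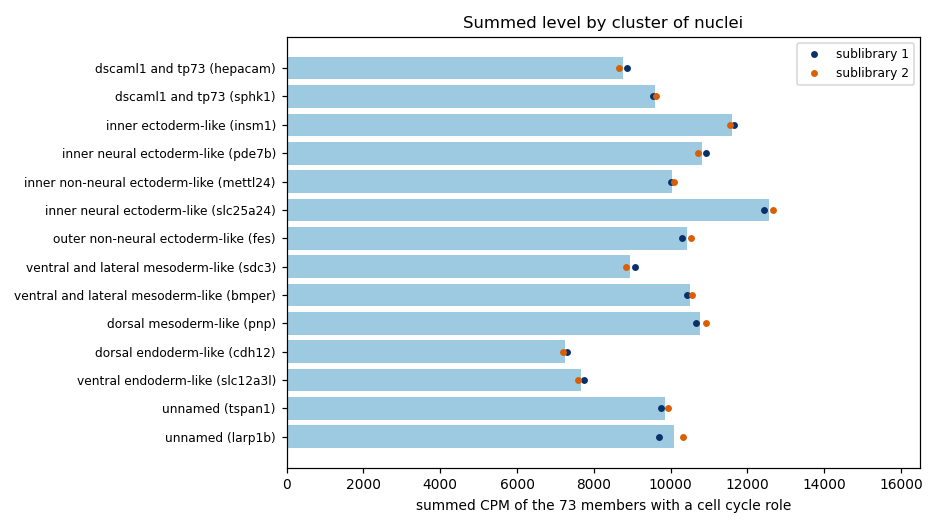
Summed level (x axis, CPM from 0) of the 73 members with a cell cycle role in each of 14 clusters (y axis). Bars are the level over both sublibraries and dots the 2 sublibraries. The slc25a24 inner neural ectoderm-like cluster is highest at 12558 CPM and the dorsal endoderm-like cluster lowest at 7249 CPM.

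Within single nuclei, counts were thinned to 2500 UMIs in each of the 7690 nuclei kept for clustering. The summed mitotic members averaged 11.7 UMIs and the summed replication members with the E cyclins 3.55 UMIs per nucleus, and the correlation of the 2 sums over nuclei was 0.15 in each sublibrary. All nuclei come from 1 pool, and a correlation this weak in sparse counts is no finding about cycle phases. Among 1891 pairs of 62 members with at least 500 thinned UMIs, the median correlation was 0.0056, and the highest was 0.22, between cdk14 and cdk6. Without the 503 nuclei of the 2 dscaml1 and tp73 clusters, a choice made after seeing the data, the value for cdk14 and cdk6 was 0.017 and the highest was 0.12, between ccnd2 and cdc25b. The ratio of variance to mean (Fano factor) had a median of 1.14 over members and 1.18 over 4324 genes. It was highest for cdk14 (7.79), cdc14b (2.22) and cdc25b (2.22), and it was 1.06 for cdk1 and 1.09 for aurkb. Without those 503 nuclei it was 2.30 for cdk14, 2.13 for cdc14b and 2.15 for cdc25b.

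As a background, barcodes with under 300 genes were summed, 193314 of them with a median of 47 UMIs. Of 101 members 0 were higher in nuclei past 2-fold, where 0.0853% of genes were, and 7 were lower (6.93%), where 4.51% were. The lowest were ccnb1, at 9.32 and 9.50 CPM in nuclei against 30.2 and 30.8 CPM in few-gene barcodes (log2 ratio −1.60), mcm3 (−1.57) and mcm2 (−1.48), at 10.8 and 11.6 CPM against 33.5 and 32.3 CPM. cdk5rap2, ccna1, mcm6 and e2f1 were also lower past 2-fold.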

How the data were processed

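The authors aligned reads with Parse Batch Analysis at default settings to UCB_Xtro_10.0 and deposited the unfiltered counts, as UMIs per barcode and gene. Scanpy 1.9.6 and Seurat are named in the submitters' processing notes. Strand use and the handling of shared reads are not given in the sources used here.

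Barcodes with at least 1500 genes were kept, and the barcode suffix gave the sublibrary. Scrublet (scanpy 1.11.5, python 3.11.15) called 0 doublets at its automatic threshold, so nuclei scoring above 0.15 (784, 9.25%) were removed before clustering but kept in the dscaml1 comparison. Counts were scaled to 10000, members and pathway lists were left out, and 2000 variable genes, 30 components, 15 neighbours and Leiden resolution 1 (leidenalg 0.10.2, igraph 0.11.9) gave 14 clusters. A name needed at least 3 raised markers, 20 nuclei and a median doublet score of 0.1 or less, and clusters at least 4-fold richer in both dscaml1 and tp73 were kept apart. A cluster with more markers of another region than of its own among its top 10 genes was named for its layer alone. These rules were set after marker scores were seen.

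UMIs were summed per class, and genes with at least 50 UMIs were compared as the ratio of CPM + 1 (numpy 2.4.6, scipy 1.17.1). Members named were up to 10 past 2-fold in each direction and a list of core regulators, and others were chosen after their values were seen. The members and lists were chosen with earlier results of these data known. Alternatives changed the gene, UMI and dscaml1 minimums, pseudocount, scaling, doublets, depth, clustering and sublibraries. 1 gene of the arrest list is not reported here. The scripts were checked on simulated counts.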

Additional observations from a re-analysis of the deposited data

How the results depend on the processing

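No paired analysis was possible because there is 1 group. Counts of members past 2-fold are small, so single genes moved them, and the cause was not tested. For dscaml1 nuclei, 4 members were higher with clusters of dscaml1 and tp73 nuclei in place of the dscaml1 minimum (chosen after seeing the data). The members lower numbered 2 with a pseudocount of 0.1, 4 in the middle UMI range and 5 with those clusters, and 0 to 1 in single sublibraries. For ectoderm-like nuclei, the members higher numbered 2 at a minimum of 1000 genes and 1 with a pseudocount of 0.1, with resolution 0.5 or 2 or with 4000 variable genes, and 0 to 2 in single sublibraries. For inner nuclei, the members higher numbered 1 at a minimum of 1000 or 2000 genes, with the mean per nucleus, at resolution 2, with 4000 variable genes or when 2-fold was asked of each sublibrary (chosen after seeing the data), 0 with centred ratios, at resolution 0.5 or with another seed, and 3 to 4 in single sublibraries. The members lower in inner nuclei numbered 1 at a minimum of 200 UMIs and 1 to 1 in single sublibraries, where cdk15 fell under 50 UMIs. Against few-gene barcodes, 0 to 1 were higher and 6 to 9 lower in single sublibraries. No ratio that was past 2-fold changed sign. With 1 pool, spread between embryos is unknown, and members under 50 UMIs could not be compared.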
